A study of Caenorhabditis elegans with 2 samples.

Results

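Promoters on the autosomes of Caenorhabditis elegans at which the intestinal GATA factor ELT-2 bound over a cluster of GATA sites are described here. A peak belonged to the set when its summit fell between 1000 bp upstream and 200 bp downstream of a transcript 5′ end of exactly 1 protein-coding gene and at least 3 sites lay within 150 bp of the summit. A site was the hexamer TGATAA, or TGATAG, or AGATAA, or AGATAG, on either strand, and overlapping sites were counted each. The rule read position and sequence and no peak height. It found 634 peaks at 604 genes, out of 1936 autosomal peaks in the promoter of a single gene and 5443 thresholded peaks in all. Of the genes, 24 had 2 such peaks and 3 had 3.

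The peaks come from chromatin immunoprecipitation followed by sequencing (ChIP-seq) of whole hermaphrodite L1 larvae, taken 6 h after their development was synchronized by bleaching and starvation. The animals were of strain OP56, genotype unc-119(ed3) III; wgIs56, a transgenic line that makes ELT-2 with a C-terminal GFP-FLAG tag, and chromatin was precipitated with an antibody to GFP. There were 2 biological replicates and 1 group, so no condition was compared. The tagged protein came from an inserted transgene in 1 line, and the regulatory sequence driving it is not given in the sources used here. Peak signal is the authors' own value for each peak on a scale that the lists do not define, and the read depth behind it is unknown.

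ELT-2 is a zinc-finger transcription factor of the GATA family and the main regulator of the differentiated intestine of the worm. It is made in all intestinal cells from the embryo through adult life, and binds to a core of the letters GATA, with the longer form TGATAA known as the preferred hexamer of intestinal promoters. Several such sites near each other are a known feature of intestinal genes, among them those for digestive proteases and vitellogenins.

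The clusters themselves show how dense the sites can be. The following spans come from the strongest members, and each runs from 10 bp before the first to 10 bp after the last site of the summit window. They are those of the named members whose span held no annotated exon. All are RefSeq sequence of the build WBcel235 (ce11), written 5′ to 3′ on the forward strand, with sites in capitals. A site on the reverse strand appears as its reverse complement, TTATCA in the case of TGATAA.
F16G10.6, chrII:2378630-2378883: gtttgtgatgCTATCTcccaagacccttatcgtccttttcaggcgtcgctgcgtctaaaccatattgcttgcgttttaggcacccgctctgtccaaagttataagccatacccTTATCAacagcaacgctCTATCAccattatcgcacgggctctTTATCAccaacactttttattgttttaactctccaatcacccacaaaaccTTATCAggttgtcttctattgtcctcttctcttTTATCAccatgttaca
srz-62, chrIV:3899916-3900135: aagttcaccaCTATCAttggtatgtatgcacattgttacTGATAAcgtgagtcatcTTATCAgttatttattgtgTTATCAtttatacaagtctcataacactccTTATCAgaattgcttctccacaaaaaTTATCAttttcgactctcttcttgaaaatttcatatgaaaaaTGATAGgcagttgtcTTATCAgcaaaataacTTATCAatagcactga
fbxc-29, chrII:915342-915550: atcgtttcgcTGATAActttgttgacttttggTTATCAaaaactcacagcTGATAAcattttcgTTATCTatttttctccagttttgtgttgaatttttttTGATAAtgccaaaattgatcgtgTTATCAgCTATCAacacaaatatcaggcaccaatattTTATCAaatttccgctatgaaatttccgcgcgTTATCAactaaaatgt
C52E2.2, chrII:1851800-1852014: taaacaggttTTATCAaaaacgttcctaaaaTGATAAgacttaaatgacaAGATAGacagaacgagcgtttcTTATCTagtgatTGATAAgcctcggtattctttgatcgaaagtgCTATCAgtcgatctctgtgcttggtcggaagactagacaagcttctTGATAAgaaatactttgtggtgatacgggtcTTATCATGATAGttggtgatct
clec-78, chrIV:3988749-3988902: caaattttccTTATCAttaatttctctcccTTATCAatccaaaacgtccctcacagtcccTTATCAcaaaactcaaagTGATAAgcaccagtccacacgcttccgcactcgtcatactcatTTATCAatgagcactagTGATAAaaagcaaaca
B0507.3, chrV:8768588-8768735: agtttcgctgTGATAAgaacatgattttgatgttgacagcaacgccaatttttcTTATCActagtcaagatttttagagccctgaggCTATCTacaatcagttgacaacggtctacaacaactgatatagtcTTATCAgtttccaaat
cpr-3, chrV:15298702-15298887: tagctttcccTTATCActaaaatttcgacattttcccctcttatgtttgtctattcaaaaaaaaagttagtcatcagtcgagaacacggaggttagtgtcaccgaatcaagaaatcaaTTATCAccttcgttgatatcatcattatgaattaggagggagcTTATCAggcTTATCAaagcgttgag

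A second set is shown because it holds as many sites or nearly as many at weaker peaks. These members had 8 sites each and pooled signals of 535, 472 and 282, below those of all members shown above.
fbxa-50, chrIII:1289207-1289394: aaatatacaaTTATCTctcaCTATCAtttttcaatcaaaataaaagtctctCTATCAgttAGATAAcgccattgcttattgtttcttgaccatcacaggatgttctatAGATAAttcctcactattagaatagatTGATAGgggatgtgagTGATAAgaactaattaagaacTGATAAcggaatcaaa
Y116F11B.6, chrV:19846498-19846786: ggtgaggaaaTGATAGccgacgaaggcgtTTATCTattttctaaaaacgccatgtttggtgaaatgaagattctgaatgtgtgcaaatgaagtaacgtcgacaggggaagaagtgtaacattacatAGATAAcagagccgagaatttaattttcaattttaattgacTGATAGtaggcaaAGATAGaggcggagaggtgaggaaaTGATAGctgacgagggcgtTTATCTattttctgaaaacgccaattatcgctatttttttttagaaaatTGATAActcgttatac
Y42A5A.1, chrV:11087334-11087580: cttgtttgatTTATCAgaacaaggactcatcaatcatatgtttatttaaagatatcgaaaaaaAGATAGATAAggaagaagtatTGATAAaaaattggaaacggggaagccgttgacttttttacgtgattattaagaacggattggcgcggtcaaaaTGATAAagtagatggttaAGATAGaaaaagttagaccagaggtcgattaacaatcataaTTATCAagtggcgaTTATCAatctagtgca

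The 3 members with 9 sites, the most found in the set, ranked 3, 5 and 6 in signal among all 5443 peaks. srz-62, a chemoreceptor gene by prediction, had 9 sites of which 7 were TGATAA, with a signal of 2179 in replicate 1 and 1748 in replicate 2. fbxc-29, of the F-box family, also had 9 sites with 7 TGATAA, with 1950 in replicate 1 and 1519 in replicate 2. C52E2.2 had 9 sites with 5 TGATAA, at a summit inside an intron of another protein-coding gene, with 1832 in replicate 1 and 1484 in replicate 2. All 3 summits lay far from the 5′ end of the gene, at 468, 658 and 880 bp upstream.

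The strongest peak of the whole list was also a member. Upstream of F16G10.6, 907 bp from its 5′ end, 6 sites with 4 TGATAA carried a pooled signal of 6412, and the peak ranked 1 in both replicates at 3523 and 2901. T24E12.13 ranked 2 in both replicates, at 2394 and 1795, with 6 sites at 723 bp upstream. Among members with a known product, clec-78, of the C-type lectin family, had 6 sites that were all TGATAA, and ranked 8 in both replicates at 1555 and 1317. The cathepsin B-like proteases cpr-4 and cpr-3 had nearly equal pooled signals of 1692 and 1689, with summits 98 and 99 bp upstream. Their order differed between replicates. cpr-4 was at 995 in replicate 1 and 659 in replicate 2, and cpr-3 at 907 in replicate 1 and 788 in replicate 2. B0507.3 reached 2071 with 4 sites. The remaining ones of the 12 strongest were Y39B6A.5, whose summit lay in its own exon, ltah-1.2, and prk-2, at 1719, 1557 and 1391.

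**Figure D1:**
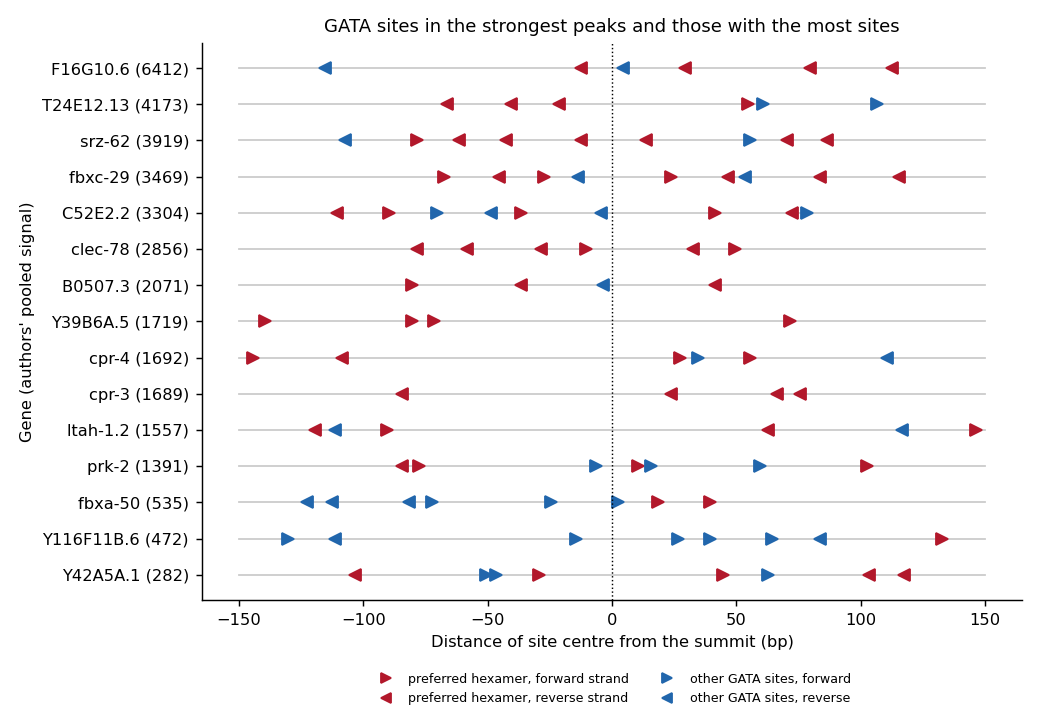
Positions of GATA sites, in bp from the peak summit, in the members with the strongest peaks or the most sites. Each row is 1 peak with its pooled signal in brackets, red marks are the preferred hexamer and blue marks other sites, and the direction of a mark gives its strand. srz-62, fbxc-29 and C52E2.2 hold 9 sites each.

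The set held 2315 sites. Exactly 3 sites were present in 369 members, 4 in 172, 5 in 59 and 6 or more in 34. Of the 1936 autosomal single-gene promoter peaks, 956 had 1 or 2 sites and 346 had none. The rule fixes the count of members, so the following shares are only its background. The windows at summits held 3 or more sites in 32.7% of autosomal single-gene promoter peaks and in 31.4% of all thresholded peaks. Windows of the same width centred 500 bp to either side of those promoter summits did so in 5.04%, and windows directly upstream of all autosomal protein-coding genes in 7.3%.

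Which hexamer made up a cluster was not used by the rule. TGATAA made up 63.9% of the member sites (95% Wilson interval 62.0 to 65.9%; this and all later intervals cover counting error only). It made up 63.1% of sites in peaks with 1 or 2 sites. In clusters of 3 or more sites elsewhere, TGATAA made up 43.2% of 651 sites in flank windows. Upstream of genes without a peak it made up 43.9% of 2693 sites. These differences were not tested. Flank windows were centred 500 bp from a summit, and any that covered another peak were not removed, here and below. AGATAA followed in members at 17.6%, TGATAG at 11.8% and AGATAG at 6.65%. Only 22 members held no TGATAA. One of them was srh-2, a predicted chemoreceptor gene, whose summit lay in its exon and whose 3 other hexamers went with a signal of 694 in replicate 1 and 404 in replicate 2.

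The base after the hexamer differed between site classes. A G followed TGATAA, giving TGATAAG, in 40.8% of the TGATAA sites of members (interval 38.3 to 43.3%) and in 46.8% of those of peaks with 1 or 2 sites (43.7 to 50.05%). In clusters upstream of genes without a peak it was 23.3%. The 8-letter form CTGATAAG made up 13.04% of TGATAA sites in members, 17.3% in peaks with 1 or 2 sites and 4.74% in clusters without a peak. The extended form was thus less frequent per site in members than in peaks with fewer sites, although these differences were not tested.

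Sites in members lay toward the summit. Within 50 bp of it fell 49.2% of member sites, against 53.7% of the sites of peaks with 1 or 2 sites and 32.4% of the sites of flank windows with 3 or more sites. Neighbouring sites started a median of 40 bp apart over 1681 pairs (quartiles 19 and 71 bp). In flank clusters the median was 52.5 bp over 456 pairs, and in clusters upstream of genes without a peak 52 bp over 1867 pairs. These sets were not matched on site number, and more sites in a window of fixed width lie closer together. Members held 2315 sites in 634 windows, against 651 in 195 flank windows and 2693 in 826 windows without a peak. A distance of 20 bp or less was found in 28.0% of pairs in members, 25.2% in flank clusters and 24.6% in clusters without a peak. Neighbours shared a strand in 57.8%, 60.3% and 59.0% of pairs in the same order. Of the 369 members with exactly 3 sites, 30.9% had all on 1 strand, against 41.1% of 146 flank clusters and 34.4% of 654 clusters without a peak. Overlapping sites formed 55 pairs of the members, or 3.27%.

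**Figure D2:**
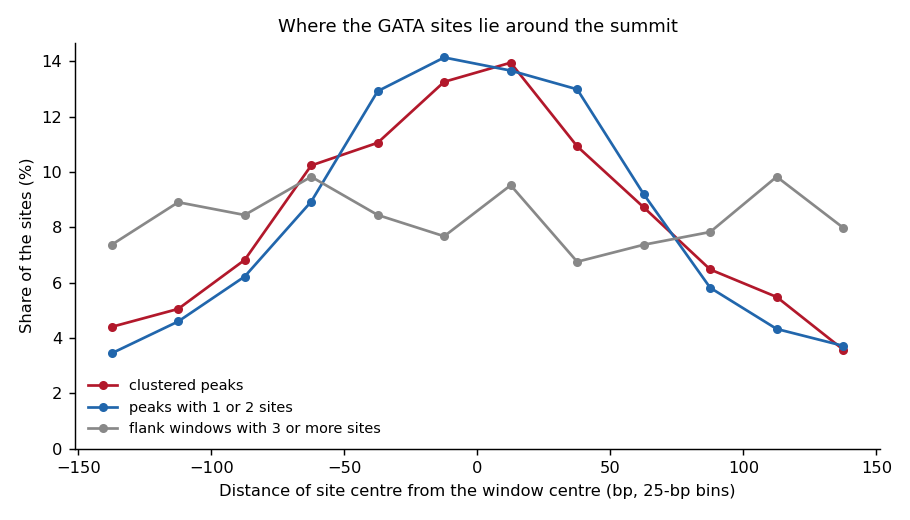
Share of the sites of each class (%) against distance from the window centre in bins (bp), for clustered peaks, peaks with 1 or 2 sites, and flank windows with 3 or more sites. Both peak classes have their maximum near the summit, with 49.2% and 53.7% of sites within 50 bp, and the flank line stays without a central maximum.

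Members were stronger ELT-2 peaks than promoter peaks with fewer sites near the summit. The pooled signal of the 634 members ran from 143 to 6412, with a median of 331 and quartiles of 224 and 513. Peaks with 1 or 2 sites had a median of 233.4 (quartiles 178 and 333) and peaks without a site 224 (quartiles 173 and 333). The ranges overlapped widely. In a linear model of log2 signal across all 1936 peaks with robust standard errors, members stood 1.38-fold above peaks without sites (95% interval 1.29 to 1.48), with Benjamini-Hochberg adjusted p = 2.5e-19 (n = 634 members and 346 peaks). Against peaks with 1 or 2 sites the same model gave 1.39-fold (1.31 to 1.46; adjusted p = 4.8e-30, n = 634 members and 956 peaks). The p-values describe the spread between peaks of 1 experiment.

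The difference was also present in the signal of each replicate, read at the peaks and site classes of the joint thresholded list. In replicate 1 the median signals were 188 in members, 136 in peaks with 1 or 2 sites and 142 in peaks without. Members were 1.29-fold above peaks without sites (1.20 to 1.39; linear model, adjusted p = 5.6e-12, n = 634 members) and 1.36-fold above those with 1 or 2 sites (adjusted p = 9.0e-26). In replicate 2 the medians were 148, 103.7 and 101 in the same order, with 344 of the peaks without sites and 955 of those with 1 or 2 sites overlapping a replicate 2 peak and entering the fit. The folds were 1.48 (1.37 to 1.60; linear model, adjusted p = 9.0e-24, n = 634 members) and 1.43 (adjusted p = 1.9e-31). Members held less GC in their windows, with a median of 34.2% against 35.9% and 39.2%. Windows over 50% soft-masked were 7.57% of members, 9.41% of peaks with 1 or 2 sites and 15.9% of those without. With GC and distance to the 5′ end as terms, the log2 differences were 0.56 and 0.50, against 0.47 and 0.47 without them.

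Within the set, more sites went with more signal. The median was 284.5 in members with exactly 3 sites, just inside the rule, and 244.5 in the 522 peaks with 2 sites, just outside it. It was 364 with 4 sites, 363 with 5 and 574 with 6 or more. The relation was loose. Spearman's rho between site number and signal was 0.22 over the 634 members and 0.27 over all 1936 peaks, and rho between TGATAA number and signal was 0.24, all from the same sequence windows. Among members with exactly 3 sites, those with 0, 1, 2 and 3 TGATAA had medians of 299, 240, 313 and 318, over 17, 76, 160 and 116 peaks. The 70 members with 4 or more TGATAA had a median of 474. Members whose nearest site lay within 25 bp of the summit, 67.0% of the set, had a median of 341, against 302 at 25 to 50 bp and 289 beyond 50 bp.

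**Figure D3:**
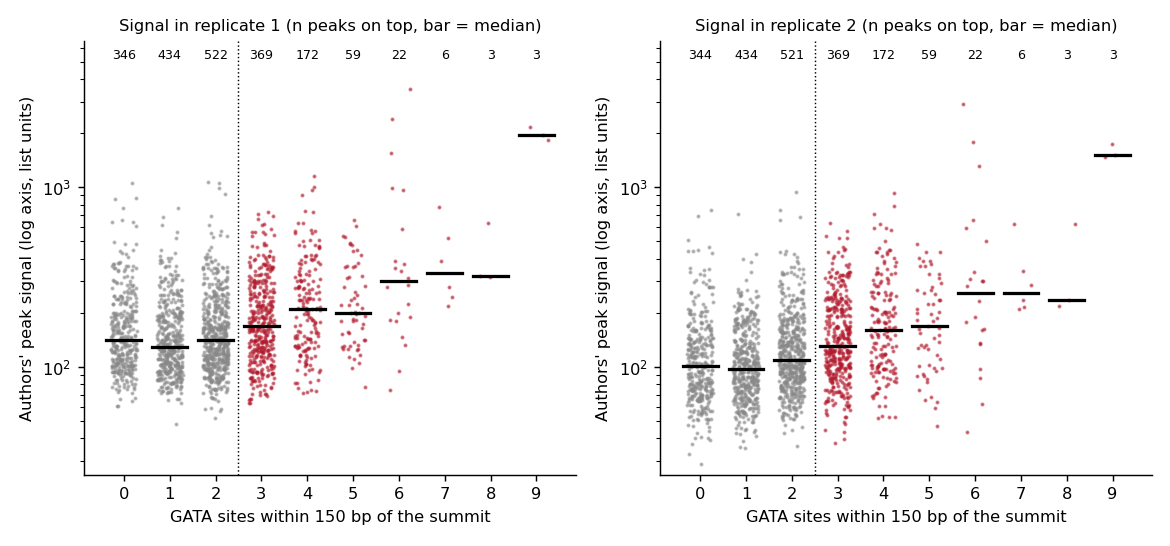
Signal of each autosomal single-gene promoter peak in replicate 1 (left) and replicate 2 (right), on a log axis in the units of the authors' lists, against the number of GATA sites within 150 bp of the summit. Points are peaks, bars are medians, members are red and lie right of the dotted line, and the clouds of neighbouring site numbers overlap while the 3 peaks with 9 sites run from 1832 to 2179 in replicate 1 and from 1484 to 1748 in replicate 2.

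Members were frequent, but not alone, among the strongest peaks. Of the 20 strongest autosomal single-gene promoter peaks 15 were members, 3 had 1 or 2 sites and 2 had none. Members made up 25 of the 37 such peaks among the 100 strongest of the whole list. Of all 1936 such peaks 32.7% were members. The 1360 strongest peaks of the thresholded list are 25% of all peaks and include 25.4% of autosomal single-gene promoter peaks. They included 40.4% of members (36.6 to 44.2%), 18.2% of peaks with 1 or 2 sites and 17.9% of those without. The equally large set of the weakest peaks held 14.04% of members, against 28.6% and 32.9%. The authors' −log10 q reached its ceiling in 78.5% of members, 58.2% of peaks with 1 or 2 sites and 54.9% of those without.

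The thresholded list was itself selected for agreement between the replicates, so that the following values describe the members and do not test their agreement. Among as many strongest replicate peaks as there are thresholded peaks, both replicates included 90.9% of members (88.4 to 92.9%). The same held for 84.9% of all thresholded peaks and 85% of autosomal single-gene promoter peaks. Spearman's rho between the replicate signals was 0.92 over members and 0.80 over 344 peaks without sites. The 3 members whose replicate ranks differed most were weak peaks. vhp-1, a MAP kinase phosphatase gene, had 6 sites yet a signal of 146 in replicate 1 at rank 2634 and 43.3 in replicate 2 at rank 8378. F26F12.3 and cwf-19L2 differed likewise, from 135 to 43.3 and from 92.6 to 37.4. Stronger members also changed rank, such as acox-1.1, the acyl-CoA oxidase gene, with a pooled signal of 469 and ranks of 687 and 1419, and act-5, at 618 with ranks of 335 and 752. The weakest members, Y70C5A.3, Y38F2AR.12 and R05H10.1, had 3 sites each and a pooled signal of 143 to 144.

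A shared replicate peak limits some values. In each replicate 16 members overlapped the same peak as another member, and 9 neighbouring pairs had overlapping windows. Members also shared replicate peaks with peaks outside the set, which were not counted. A peak with 2 sites and a pooled signal of 345 carried the replicate values of cpr-4, 995 and 659. Conversely, a member with a pooled signal of 381 carried those of a 2-site peak, 535 and 378. The replicate medians and folds above include such shared values in all classes. The 8-site member of Y42A5A.1 printed above has a pooled signal of 282, but the replicate peak it overlaps, at 636 in replicate 1 and 624 in replicate 2, is shared with a second member of the same gene. That second member had 4 sites, a pooled signal of 1251 and a summit 716 bp upstream. Some windows also resemble one another. Those of srg-20 and Y105C5A.13 shared 86 runs of 20 bases, and those of Y116F11B.6 and F19B2.6 shared 89. Direct repeats in which 36 of 40 bases matched were present in 3 members, 2 at Y116F11B.6 and 1 at ell-1, in 0 of the 956 peaks with 1 or 2 sites and in 1 of the 346 without.

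In mean distance from the gene, neither difference passed the test. The mean distance of members from the 5′ end was 322 bp, against 319 bp for peaks without sites (difference 3.13 bp, 95% interval −32.4 to 38.7; linear model, adjusted p = 0.86, n = 634 members). Against peaks with 1 or 2 sites, at 294 bp, the difference was 27.6 bp (−0.72 to 55.9; adjusted p = 0.062, n = 634 members). With a promoter of 500 bp upstream to 100 bp downstream both differences changed sign, to −34.0 and −2.96 bp, and the first then passed the threshold. The medians, which were not tested, were 195.5 bp in members, 196 bp with 1 or 2 sites and 244 bp without. Summits within 200 bp were 50.6% of members (46.7 to 54.5%), 51.05% of peaks with 1 or 2 sites and 40.5% of those without (35.4 to 45.7%). At 500 bp or more lay 26.3%, 21.3% and 22.5%. In members 88.8% were upstream. The 5 strongest members lay 468 to 907 bp upstream, but the median signal did not fall or rise steadily with distance. It was 338 within 100 bp, 346 at 100 to 200 bp, 318 at 200 to 500 bp and 324 beyond.

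Most summits were between genes, 402 members or 63.4%. In peaks with 1 or 2 sites and in those without, the share was 66.3% and 67.6%. Introns of the bound gene held 120 members, or 18.9% (16.1 to 22.2%), against 13.8% of peaks with 1 or 2 sites (11.8 to 16.1%) and 10.1% of those without (7.36 to 13.7%), which was not tested. Its exons held 62 members (9.78%), against 10.5% and 9.54%. Of the rest, 18 lay in exons and 15 in introns of another protein-coding gene, and 17 within a non-coding gene. Chromosomes II, III, IV and V gave 146, 84, 137 and 185 members and I gave 82, or 30.5 to 37.03% of the single-gene promoter peaks of each chromosome.

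Members had narrower peaks in the mean, but not in the median, which was 410 bp in every class. The mean width was 339 bp, against 381 bp for peaks without sites (difference −42.5 bp, SE 5.98; linear model, adjusted p = 2.5e-12, n = 634 members) and 377 bp for peaks with 1 or 2 sites (−38.5 bp, SE 5.05; adjusted p = 6.2e-14). The width was exactly 410 bp in 60.6% of members, 85.04% of peaks with 1 or 2 sites and 86.99% of those without. The upper quartile was also 410 bp in every class, and the lower quartile was 230 bp in members and 410 bp in the others. The widest member, at 787 bp, was the strongest, F16G10.6. The width moved with signal in the same lists. With log2 signal as a term the differences were −13.99 and −9.87 bp (unadjusted p = 0.0067 and 0.028, n = 634 members).

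Many promoters with a cluster held no peak. Of the autosomal protein-coding genes, 6134 had 3 or more sites in some window of that width in their promoter. A summit lay somewhere in the promoter, over the cluster or not, in 22.2% of these (21.1 to 23.2%), leaving 4774 without. Among the 11108 genes with fewer than 3 sites it was 11.8%, and over all genes 15.5%, counted at the outermost 5′ end of each. The share was 8.01% with no site, 13.0% with 2, 18.3% with 3, 26.1% with 4, 35.1% with 5 and 39.4% with 6. It was 60% of 25 genes with 7 sites. Of the 167 genes with 6 or more, 74 had a summit, or 44.3%.

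**Figure D4:**
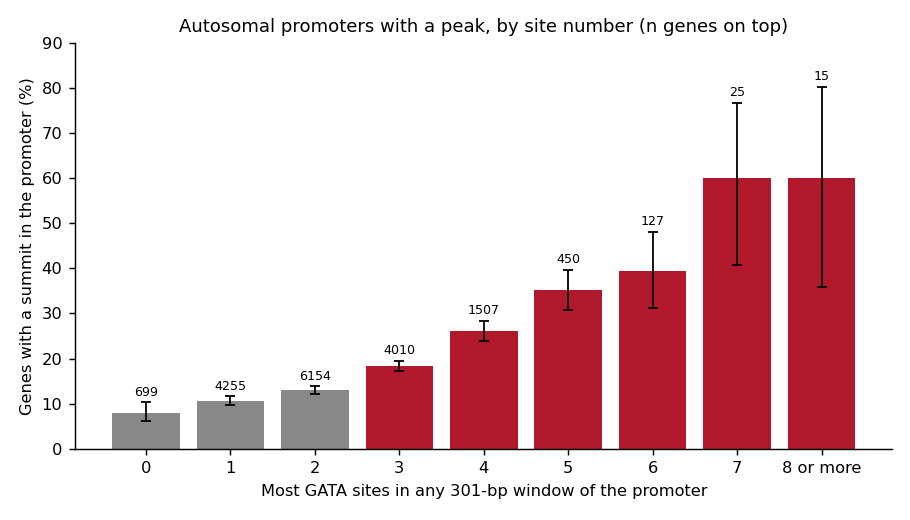
Share of autosomal protein-coding genes with a peak summit in the promoter (%), against the most GATA sites in any window of the summit-window width in that promoter; bars are 95% Wilson intervals. The share is 8.01% with no site and 39.4% with 6.

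The genes under the peaks were read against 21 lists of gene groups, 11 by symbol and 10 by family name. Of all autosomal protein-coding genes 3.5% had a member peak and 16.7% had any summit in the promoter, and of the 1753 genes with a single-gene promoter peak 34.5% had a member. The shares below are to be read against these. Lists are small, and none was tested. The intervals were not adjusted for the 21 lists, so an interval above a background is a description and no test.

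Of 13 proteases and other digestive enzymes with a single-gene peak 8 had a member (Wilson interval 35.5 to 82.3%), among them cpr-4 and cpr-3, whose clusters are described above, and the cathepsin L gene cpl-1 at 300 in replicate 1 and 258 in replicate 2. Of 8 genes of the brush border and intestinal filaments 5 had one (30.6 to 86.3%, which covers the background), among them the water channel aqp-1, the intestinal actin act-5 and the intermediate-filament organizer ifo-1. aqp-1 had a signal of 419 in replicate 1 and 334 in replicate 2, and act-5 400 and 225. Of 13 lysozyme, saposin-like and infection-response genes 8 had one (35.5 to 82.3%). The lysozyme gene lys-8 led them with 4 sites that were all TGATAA, at 733 in replicate 1 and 596 in replicate 2. irg-4, a gene induced on infection, had 475 and 446, and the saposin-like spp-8 had 469 and 350.

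Among the metabolic groups, only UDP-glucuronosyltransferases had a Wilson interval above the background of 34.5% (38.9 to 74.5%). The interval covered it for lipid metabolism (28.0 to 72.0%), cytochrome P450 enzymes (6.19 to 41.0%) and glutathione S-transferases (4.33 to 42.2%). It also did so for short-chain dehydrogenases (13.7 to 69.4%) and metal and heme handling (8.22 to 64.1%). In lipid metabolism 8 of 16 had a member, with fat-4, a fatty acid desaturase, at 469 in replicate 1 and 288 in replicate 2, and the elongase elo-2 at 353 and 280 over 6 sites of which 1 was TGATAA. UDP-glucuronosyltransferases, which conjugate foreign compounds, had 15 of 26, led by ugt-64 at 357 and 267. The cytochrome P450 enzymes, of the same detoxification pathway, had 3 of 17, and glutathione S-transferases 2 of 13. Short-chain dehydrogenases had 3 of 8, led by dhs-3 at 290 and 234. In metal and heme handling 2 of 7 had one, the divalent metal transporter smf-3 at 411 and 330 and hrg-7 at 302 and 292.

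Regulators and the large gene families also held members. Among these lists, only C-type lectins had a Wilson interval above the background of 34.5% (43.7 to 75.3%). The interval covered it for regulators (21.3 to 71.99%) and nuclear hormone receptors (17.97 to 41.6%). It also did so for F-box proteins (20.8 to 50.8%) and predicted chemoreceptors (21.6 to 63.99%). Of 11 regulators of intestinal transcription 5 had a member, the strongest being zip-10, a bZIP factor, at 407 and 373. nhr-8, a nuclear receptor, had a summit in its exon at 476 and 315, and hlh-11 a summit in its intron at 212 and 212. Of 53 nuclear hormone receptors 15 had one, led by nhr-291 at 582 and 534 over 3 sites that were all TGATAA. C-type lectins had 20 of 33, clec-78 and clec-72 first, the latter at 565 and 449. F-box proteins had 12 of 35, and predicted chemoreceptors of the sr families 7 of 17. Over all autosomal genes of a family, 8.44% of C-type lectins, 6.1% of nuclear hormone receptors and 3.93% of F-box proteins had a member. Of the 1276 predicted chemoreceptors 0.549% had one, against 3.5% of all autosomal protein-coding genes. Any summit lay in the promoter of 2.74% of them, against 16.7% of all.

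Lists of other tissues were counted against the background of 3.5% of all autosomal protein-coding genes, not the 34.5% used for the lists above. Of 129 collagens, 2 had a single-gene peak and 0 had a member, which allows a share of up to 2.33% of all, taking 3 counts of the total as the limit of a count of 0 here and below. The cuticle list had 0 of 16 genes and the nervous-system list 0 of 21, which allow up to 18.8% and 14.3%. The germ line list had gld-2 with 63 in replicate 1 and 89.2 in replicate 2, and the body wall muscle list had deb-1 at 115 and 120, each the 1 gene of its list with a single-gene peak, out of 22 and 15 autosomal genes. Of these 4 values, gld-2's lie below the members' lower quartiles of 128 in replicate 1 and 99.2 in replicate 2, as does deb-1's in replicate 1, and deb-1's in replicate 2 lies between the lower quartile and the median. Of 79 cytosolic ribosomal protein genes 43 had any summit in the promoter, yet 0 of the 12 with a single-gene peak had a member. That allows up to 25% of these 12, to be read against 34.5%, and up to 3.80% of all 79. The single-gene peaks held no site in 6 and 1 or 2 sites in 6. Vitellogenins had 1 autosomal gene, with no summit.

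**Figure D5:**
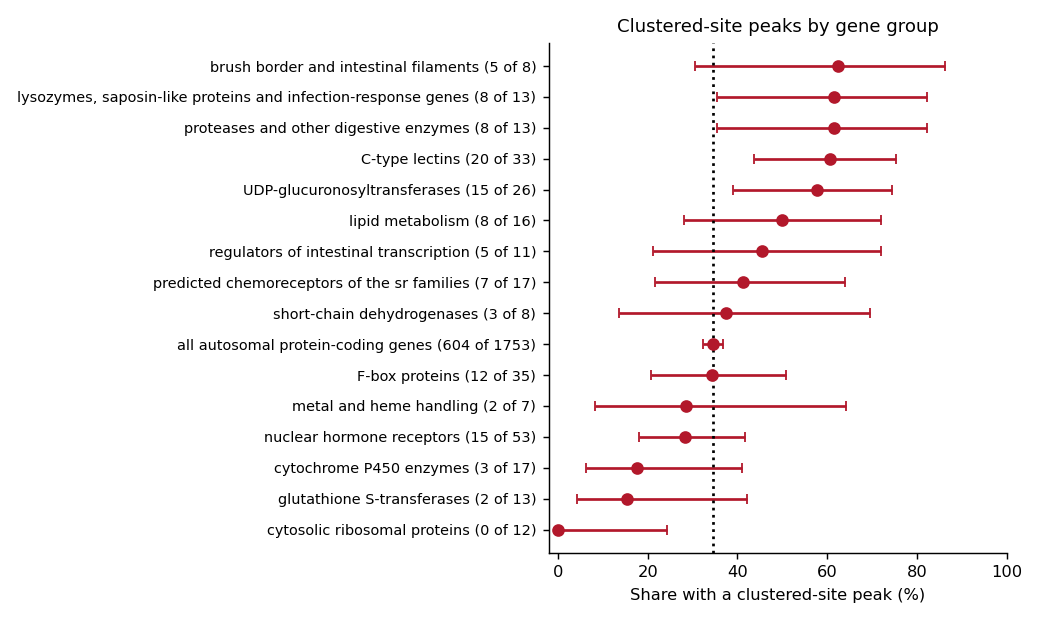
Share of autosomal genes with a single-gene promoter peak that had a clustered-site peak (%), by gene list, with 95% Wilson intervals and the background as a dotted line; lists with fewer than 5 such genes are left out. C-type lectins (20 of 33) and proteases (8 of 13) lie above the background of 34.5%, and ribosomal proteins are at 0 of 12.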

How the data were processed

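ELT-2 ChIP-seq peak lists of 2 biological replicates of L1 larvae were used. The authors deposited, per the file headers, relaxed lists per replicate and 1 thresholded list of both replicates, on build ce11. Each holds signal, the authors' peak score in a unit not defined there, and the deposited −log10 q. No source used here names the peak caller or the aligner. Lists on ce10 were not used. Signal is a value per peak, and its read depth is unknown.

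Summits were placed on the Ensembl WBcel235 annotation and the RefSeq genome of the same build, with a site wholly within 150 bp of the summit. A replicate's signal is that of its strongest overlapping peak. One linear model per measure was fitted across all 1936 peaks, with site class as term, HC3 robust standard errors, two-sided tests and Benjamini-Hochberg adjustment over 10 contrasts (statsmodels 0.14.6, pandas 2.3.3, SciPy 1.17.1, Python 3.11.15, NumPy 2.4.6). Shares carry Wilson intervals, for counting error only, and for a share of 0 the limit is 3 counts of the total. The model was tested on simulated data. Named genes are the 12 strongest members, the 6 with most sites, the 3 weakest, the 3 whose replicate ranks differ most, and up to 3 per list. The members, lists and tests were chosen with earlier results of these data known. 1 list symbol was unmatched.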

Additional observations from a re-analysis of the deposited data

How the results depend on the processing

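With 1 replicate left out, the 5443 strongest peaks of the other replicate's relaxed list replaced the thresholded list, with their own summits and signals. The count of 634 members was then 616 to 618. On the thresholded list the count was 1156 with 2 or more sites, 265 with 4 or more, 273 with TGATAA alone and 420 in the strongest 50%. The log2 difference in pooled signal kept its direction under each of the alternatives run. Over 14 alternatives it ranged on the log2 scale from 0.28 to 0.70 against peaks without sites and from 0.33 to 0.70 against peaks with 1 or 2 sites. Leaving out 1 replicate, where the signal is that of the other replicate alone and not pooled, gave 0.45 to 0.53 and 0.480 to 0.481. Without any soft-masked base only 11 members were left, and the values 0.61 (n = 11, p = 0.11) and 0.53 (n = 11, p = 0.13) did not pass. Leaving out windows over 50% masked, an alternative chosen after seeing the data, gave 0.50 and 0.47. The distance difference against peaks without sites changed sign to −34.0 bp (500/100 bp promoter) and −9.95 bp (3000/500 bp promoter). Leaving out 1 replicate gave −2.301 to 1.66 bp. Against peaks with 1 or 2 sites it became −2.96 bp with the 500/100 bp promoter. The cause was not tested. The share of clustered promoters with a peak was 12.3% for the strongest 50% of the list. On the same smaller list it was 5.55% of promoters with fewer than 3 sites and 7.96% of all. No paired analysis was possible because there is 1 group of 2 samples. The unknown read depth limits what weak peaks can show, and a peak list holds no value for a promoter without a peak.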
